A study of Homo sapiens with 18 samples.

Results

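The replication-dependent histone genes were followed after depletion of UPF1 or RCOR1, with and without androgen, in LNCaP, a human prostate cancer line that responds to androgen. The genes were taken by symbol (H1-1 to H1-5, and all genes named H2AC, H2BC, H3C or H4C with a number), which matched 65 of the 60649 genes in the count table. Of these, 43 passed the filter on low counts: 3 of the H1 class, 13 of H2A, 13 of H2B, 8 of H3 and 6 of H4. The 22 others had between 0 and 50 counts in total over all libraries, and 6 of them had 0. The passing genes nearest to the limit were H3C4 with 206 and H3C12 with 214 counts in total. Of the 43, 39 were above the filter's cutoff of 0.726 CPM (counts scaled to a library of fixed size) in every library of all 6 groups, and H2AC4, H4C11, H3C4 and H3C12 were not.

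Cells were transfected with a pool of siRNAs against UPF1, against RCOR1 or with a control pool, and all groups were moved to androgen-depleted medium the next day. At 48 h after transfection they received 5 nM R1881, a synthetic androgen, or ethanol vehicle, and RNA was collected 48 h later. This gave 6 groups of 3 biological replicates: control, UPF1 and RCOR1 siRNA, each in vehicle and in R1881. Each target was depleted with 1 pool, in 1 cell line. The input was 500 ng of total RNA, from which ribosomal RNA was removed, so that transcripts without a poly(A) tail, the usual form of histone mRNA, were counted.

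Replication-dependent histone genes supply the histones that package newly copied DNA. H2A, H2B, H3 and H4 form the nucleosome core, and H1 binds the linker DNA between nucleosomes. Their transcripts accumulate in S phase and end in a conserved stem-loop instead of a poly(A) tail. SLBP, the stem-loop binding protein, acts in 3' end processing and translation of these transcripts. When DNA synthesis stops, UPF1, an RNA helicase better known from nonsense-mediated decay, is recruited through SLBP and acts in the rapid decay of histone mRNA. RCOR1 (CoREST) is the scaffold of a repressor complex with the demethylase KDM1A and histone deacetylases. Some of these genes are also known to give longer, polyadenylated transcripts outside S phase.

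The stem-loops are shown because they are the element through which SLBP and UPF1 act on these transcripts. In the GENCODE release 29 transcripts (build GRCh38), 28 members had at least 60 annotated bases after the stop codon, and 26 of these held a stem-loop with a 6-base stem and a 4-base loop within 150 bases of the stop codon. With 1 shorter model this made 27 members, 18 of them among the 43. The stem-loop began 22 to 67 bases after the stop codon, with a median of 36. Those of 5 genes are given as DNA letters of the transcript strand, 5' to 3', with the stem-loop in capitals, at chr1:149886188-149886203 (H2BC21, minus strand), chr6:26123472-26123487 (H2BC4, minus strand), chr6:27839090-27839105 (H2BC15, plus strand), chr6:26205001-26205016 (H4C5, plus strand) and chr6:26225596-26225611 (H3C6, plus strand).
H2BC21: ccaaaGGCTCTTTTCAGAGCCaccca
H2BC4: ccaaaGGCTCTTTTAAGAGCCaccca
H2BC15: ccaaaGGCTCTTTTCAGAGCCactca
H4C5: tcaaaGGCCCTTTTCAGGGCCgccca
H3C6: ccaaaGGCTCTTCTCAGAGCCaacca
The form of H2BC21 and H2BC15 was the most frequent, in 15 of the 27. The form of H4C5 was found in 4 members, all of the H4 class. The form of H2BC4 was in 4, and that of H3C6 was in H3C6 alone. Among the passing genes with at least 60 bases after the stop codon, H2BC11 and H2AC11 had no such stem-loop in that window.

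Promoter sequences are shown for 2 divergent H2A/H2B pairs, whose genes start back to back, and for a linker histone gene. The letters are from RefSeq (GRCh38.p14), given 5' to 3' on the strand of the H2B or H1 gene and ending at the base before its start. Capitals mark 4 motifs on either strand. They are the TATA box with the letters TATAAA, the CCAAT box, the octamer ATTTGCAT of H2B promoters and the element of H1 promoters with the letters AAACACA. The first 2 lines are the bases between the 2 starts, chr1:149886683-149886917 for H2BC21 with H2AC20 (minus strand) and chr6:27814778-27815021 for H2BC14 with H2AC14 (plus strand). The last is chr6:27867589-27867718 before H1-5 (minus strand).
H2BC21: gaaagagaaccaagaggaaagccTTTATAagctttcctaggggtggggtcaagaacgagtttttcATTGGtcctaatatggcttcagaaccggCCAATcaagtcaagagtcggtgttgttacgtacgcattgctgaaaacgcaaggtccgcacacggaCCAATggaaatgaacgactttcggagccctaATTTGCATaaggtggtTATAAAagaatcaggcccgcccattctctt
H2BC14: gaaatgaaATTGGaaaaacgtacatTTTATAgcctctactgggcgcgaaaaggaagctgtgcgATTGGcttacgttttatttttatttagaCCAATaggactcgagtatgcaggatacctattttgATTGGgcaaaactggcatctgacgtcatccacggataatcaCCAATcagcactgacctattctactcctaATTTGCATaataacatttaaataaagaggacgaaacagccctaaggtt
H1-5: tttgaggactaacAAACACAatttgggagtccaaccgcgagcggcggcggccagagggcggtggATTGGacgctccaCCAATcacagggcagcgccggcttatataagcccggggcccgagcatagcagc
Both pairs hold an octamer next to the H2B start, 46 bases before it in H2BC21 and 48 in H2BC14. Windows of 300 bases around the start were at hand for 38 of the 43 passing genes and for 35116 promoters in all. A TATA box stood in 71.1% of the 38 against 11.5% of all promoters, and a CCAAT box in 89.5% against 34.6%, with none in the 4 H4 windows. The octamer was in 10 of 12 H2A and 10 of 13 H2B windows, some of which overlap within a pair, and in none of H1, H3 or H4, against 1.77% of all promoters. The H1 element was in all 3 H1 windows and in H2AC20, against 5.64% of all promoters. Such matches describe letters and say nothing of binding.

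Totals per library ran from 10299607 to 17338235 counts. UPF1 was at 134 ± 18 CPM with control siRNA and 22.8 ± 2.8 with UPF1 siRNA in vehicle, and at 149 ± 13 and 26.3 ± 0.67 in R1881 (SD, n = 3). RCOR1 was at 99.6 ± 8.8 and 12.8 ± 3.4 CPM in vehicle and at 79.7 ± 10 and 12.5 ± 0.30 in R1881. All 9 luminal prostate markers were detected, and 6 rose with R1881 with control siRNA. Of 11 markers of other cell types, 7 did not pass the filter, with TP63, COL1A2 and CD3E at 0 counts and the other 4 at 1 to 7 in total. MALAT1, an abundant nuclear RNA, ranged from 3761 to 35087 CPM, lowest in replicates 1 and 2 of UPF1 siRNA in R1881. It also varied within the other groups, for example from 10829.5 to 29083 CPM in control vehicle and from 12329 to 31489 in RCOR1 vehicle. The library lowest in MALAT1 had the highest summed histone CPM of its group in control vehicle, control R1881 and UPF1 R1881. It had the middle one in both RCOR1 groups and the lowest in UPF1 vehicle. The relation of MALAT1 to the histone levels was not tested. CPM and fold changes use edgeR's TMM scaling factors. Tests are edgeR's quasi-likelihood F test over 15390 genes with Benjamini-Hochberg adjustment, a gene is called at an adjusted p below 0.05, and ± after a log2 fold change is its standard error.

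The histone genes together were highest in control siRNA vehicle cells, lower with R1881 and lowest when UPF1 depletion and R1881 were combined. Their summed level was 3454 ± 671 CPM (SD, n = 3) with control siRNA in vehicle and 1706 ± 201 in R1881. It was 1404 ± 187 and 1139 ± 48 with UPF1 siRNA, and 2557 ± 223 and 1535 ± 60 with RCOR1 siRNA. Replicate 2 of control siRNA in vehicle stood above the others of its group at 4221 CPM. In bulk RNA, fewer cells in S phase and less histone mRNA per cell cannot be told apart.

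With UPF1 siRNA and R1881 combined, H3 and H4, the classes of the central tetramer of the nucleosome, had the lowest levels relative to control vehicle. With UPF1 siRNA alone H1 was at 36.6% and H4 at 38.9%, and with RCOR1 siRNA in vehicle H4 was the highest class relative to control vehicle. The H3 sum went from 364 ± 73 CPM with control siRNA in vehicle to 117 ± 12 in R1881, 120 ± 22 with UPF1 siRNA in vehicle and 59.9 ± 4.4 with both, which is 16.4% of the starting level. The H4 sum was 484 ± 95, 181 ± 24, 188 ± 31 and 96.2 ± 4.6 CPM in the same order, or 19.9% with both. For H2A it was 725 ± 157, 325 ± 43, 307 ± 36 and 208 ± 13 CPM, or 28.7% with both. The linker histones H1 were at 759 ± 152, 394 ± 63, 278 ± 43 and 223 ± 19 CPM, or 29.3% with both. In these 4 classes no library of the other 3 groups named here reached the lowest control vehicle library.

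**Figure D1:**
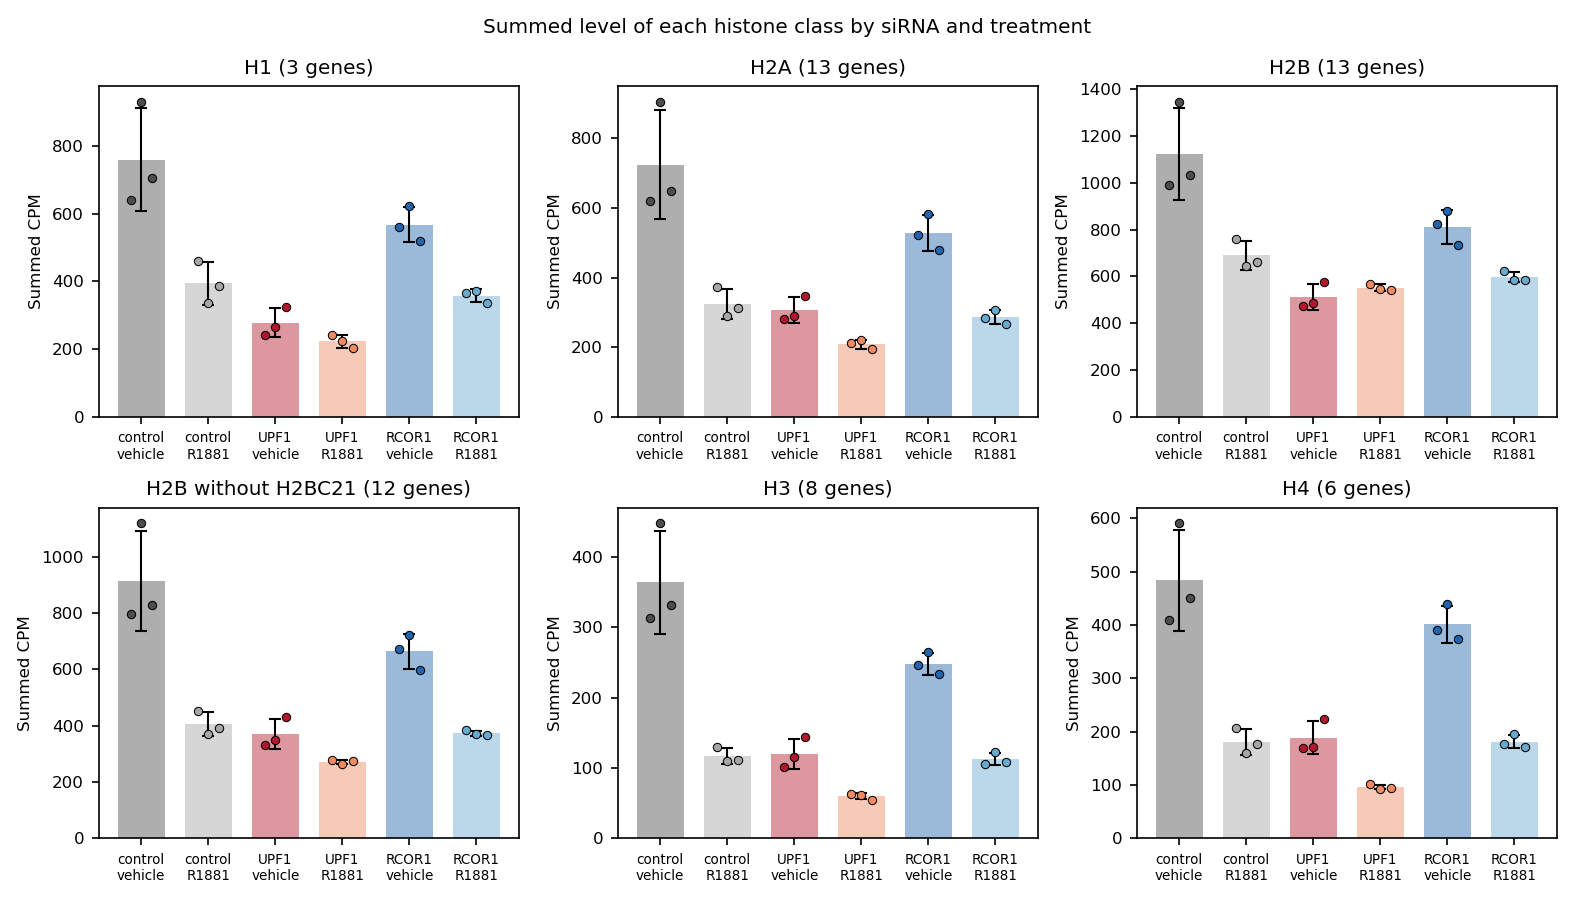
Summed CPM of the genes of each histone class in every library, by siRNA and treatment (bars: mean of 3 libraries, error bars: SD, points: libraries), with the H2B class also drawn without H2BC21. H3 and H4 are lowest with UPF1 siRNA in R1881, at 16.4% and 19.9% of control vehicle, while the full H2B sum does not go down between UPF1 siRNA in vehicle and in R1881.

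The H2B class did not follow this order. Its sum was 1122 ± 195 CPM with control siRNA in vehicle, 689 ± 60 in R1881, 511 ± 56 with UPF1 siRNA in vehicle and 552 ± 15 with UPF1 siRNA in R1881. H2B therefore made up 32.6 ± 0.7% of the histone sum in control vehicle cells and 48.5 ± 1.1% with both, whereas H3 went from 10.5 ± 0.1% to 5.25 ± 0.20%. Without H2BC21, an alternative chosen after seeing the data, the H2B sum was 914 ± 178, 405 ± 43, 371 ± 54 and 272 ± 7 CPM, or 29.8% of control vehicle with both. With RCOR1 siRNA in vehicle the classes stood between 68.1% (H3) and 82.9% (H4) of control vehicle.

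R1881 lowered nearly every histone gene in cells with control siRNA. Of the 43 genes, 40 were called lower and 1 higher, where 17.6% of all genes tested were called lower and 20.1% higher. The median log2 fold change of the 43 was -1.69, against 0.02 over all genes, and 32 fell at least 2-fold. All 3 H1, all 13 H2A and all 6 H4 genes were called lower, with 11 of 13 H2B and 7 of 8 H3 genes. Over the 39 genes above the cutoff in every group, 36 were called lower, with a median of -1.66.

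H3C13, a histone H3 gene of the chromosome 1 cluster (chr1:149813271-149813681), had the largest difference. It was at 25.5, 37.3 and 27.6 CPM in vehicle and at 5.48, 3.87 and 3.88 in R1881, with a log2 fold change of -2.76 ± 0.24 (adjusted p = 1.54e-07). The groups did not overlap, and the lowest vehicle library was over 4 times the highest R1881 library. H2BC14 (chr6:27815044-27815424) went from 25.0, 35.5 and 27.3 CPM to 6.92, 4.82 and 5.15, a log2 fold change of -2.37 ± 0.20 (adjusted p = 1.14e-07). H3C2 (chr6:26031650-26032060) went from 141, 211 and 151 CPM to 44.5, 30.9 and 34.8 (-2.19 ± 0.22, adjusted p = 8.45e-07). H2BC17 went from 50.9, 68.3 and 47.6 to 13.5, 9.28 and 11.7 CPM (-2.27 ± 0.20, adjusted p = 1.84e-07). In these 3 genes every R1881 library lay far below every vehicle library.

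Among the linker histones the 3 genes differed in size of response. H1-5 (chr6:27866849-27867529) was at 153, 232 and 172 CPM in vehicle and 50.5, 32.7 and 46.1 in R1881, a log2 fold change of -2.11 ± 0.25 (adjusted p = 6e-06). H1-2 (chr6:26055787-26056428) went from 287, 420 and 319 to 202, 150 and 172 CPM (-0.97 ± 0.15, adjusted p = 5.65e-05). H1-4 (chr6:26156354-26157107) was at 201, 278 and 214 CPM in vehicle and 208, 152 and 169 in R1881 (-0.39 ± 0.13, adjusted p = 0.0252). The H1-5 and H1-2 groups were apart, while those of H1-4 overlapped, and the H1-4 call was lost without control vehicle replicate 2 (-0.24, adjusted p = 0.153) and without control R1881 replicate 2 (-0.29, adjusted p = 0.119) or 3 (-0.36, adjusted p = 0.0786).

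In the H2A and H4 classes the differences were of one direction and ran over a range. H2AC12 had the largest of the H2A class (34.1, 58.1 and 36.7 CPM in vehicle, 10.9, 9.21 and 10.8 in R1881, log2 fold change -2.06 ± 0.20, adjusted p = 6.41e-07). H2AC6 had the smallest, -0.24 ± 0.09 (adjusted p = 0.0442). In the H4 class H4C1 had the largest (18.2, 24.6 and 18.8 CPM against 4.61, 5.12 and 5.87, log2 fold change -1.98 ± 0.22) and H4C8 the smallest (-0.84 ± 0.14). The 3 most abundant H4 genes, H4C3, H4C2 and H4C5, fell by 1.66, 1.93 and 1.27 on the log2 scale. H2AC11, among the most abundant of its class, was at 81.3, 122 and 85.9 CPM in vehicle and 29.3, 20.5 and 21 in R1881 (-2.03 ± 0.22, adjusted p = 1.45e-06). H3C10 was at 80.8, 117 and 88.8 CPM against 39.5, 31.4 and 34.6 (-1.44 ± 0.14, adjusted p = 5.78e-07). In both genes the groups were apart.

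**Figure D2:**
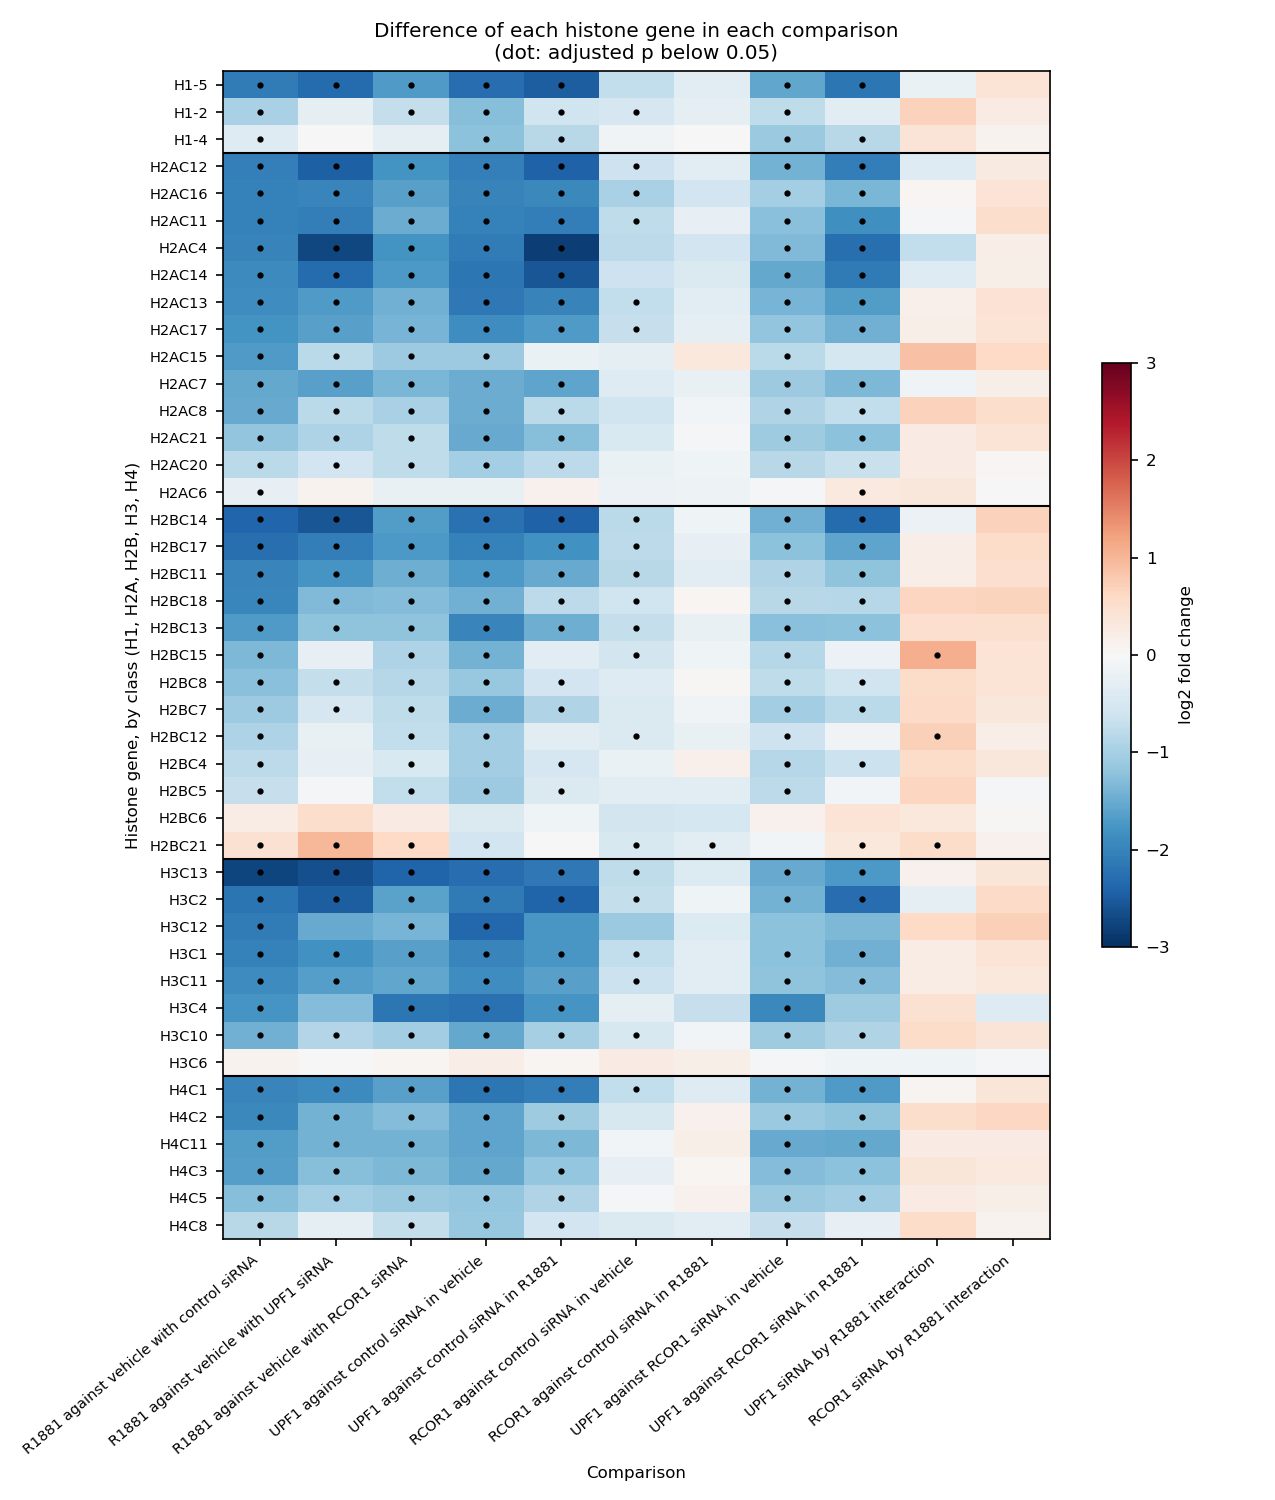
Log2 fold change of the 43 histone genes (rows, grouped by class and ordered by the R1881 response with control siRNA) in 11 comparisons (columns), with a dot where the adjusted p was below 0.05. The R1881 and UPF1 columns are blue for nearly all genes, H2BC21 is red in the 3 R1881 columns, and the H3C6 row has no dot.

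With UPF1 siRNA, R1881 lowered 30 of the 43 genes and raised 1, where 20% of all genes were called lower and 21.6% higher. The median was -1.30, against -0.01 over all genes. The genes called lower were 1 of 3 H1, 12 of 13 H2A, 7 of 13 H2B, 5 of 8 H3 and 5 of 6 H4. Without UPF1 R1881 replicates 1 and 2, 23 were called lower and 1 higher. From a lower starting level several genes went close to the limit of detection. H3C13 was at 4.08, 6.16 and 8.44 CPM in vehicle and 0.813, 1.26 and 0.936 in R1881 (-2.63 ± 0.31, adjusted p = 4.83e-06). H2AC4 was at 1.97, 2.69 and 5.12 CPM against 0.523, 0.560 and 0.340 (-2.73 ± 0.48, adjusted p = 0.000308), and its R1881 libraries were all below the filter's cutoff. H1-4 was not called here, at 89.6, 97.6 and 110 CPM in vehicle and 103, 98.2 and 95.5 in R1881 (-0.00 ± 0.13, adjusted p = 0.995).

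With RCOR1 siRNA, R1881 lowered 38 genes and raised 1, where 14.9% of all genes were called lower and 16.3% higher, and the median was -1.31. H3C13 again had the largest difference (17.8, 20.5 and 15.1 CPM in vehicle, 3.08, 4.12 and 2.85 in R1881, log2 fold change -2.41 ± 0.25, adjusted p = 1.61e-06). H1-5 went from 111, 121 and 104 to 35.2, 36.5 and 32.2 CPM (-1.69 ± 0.25, adjusted p = 7.83e-05). In both genes the 2 groups were far apart. The genes that were not called in this arm were H1-4, H2AC6, H2BC6 and H3C6.

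Whether the response to R1881 differed between siRNAs was tested as an interaction, the response with the targeting siRNA minus that with control siRNA. For UPF1, 3 of 43 genes were called higher and none lower, where 1.35% of all genes were called higher and 1.37% lower. At an unadjusted p under 0.05 there were 16 genes, DESeq2 called 4, and the median of the interaction was 0.25. The 3 were all H2B genes: H2BC15 (1.10 ± 0.20, adjusted p = 0.00865), H2BC21 (0.54 ± 0.11, adjusted p = 0.0151) and H2BC12 (0.71 ± 0.17, adjusted p = 0.0397). The count became 6 without control R1881 replicate 1 and 5 without UPF1 R1881 replicate 3. It was 0 without UPF1 R1881 replicates 1 and 2, where the lone library left was assumed to vary like the other groups. For RCOR1 no gene was called in either direction by edgeR or DESeq2, where 0.227% of all genes were called higher and 0.539% lower. At an unadjusted p under 0.05 there were 4 by edgeR and 3 by DESeq2, the smallest adjusted p was 0.258, and the median was 0.35.

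H2BC15 (chr6:27837760-27865798) shows what the interaction measured. It was at 61.5, 85.9 and 63.4 CPM with control siRNA in vehicle and 30.9, 26.8 and 25.6 in R1881 (-1.34 ± 0.14, adjusted p = 1.51e-06). With UPF1 siRNA it was at 23.0, 23.5 and 32.4 CPM in vehicle and 21.5, 21.9 and 23.3 in R1881 (-0.24 ± 0.14, adjusted p = 0.188). The ranges with UPF1 siRNA alone and with R1881 alone overlapped, and those in vehicle and R1881 with UPF1 siRNA met at 23.0 to 23.3 CPM. H2BC12 (chr6:27146418-27146798) had the same order of group means, with 147, 201 and 161 CPM, then 101, 78.9 and 86.2, then 77.6, 76.6 and 93.7, and with both 70.7, 70.7 and 70.8. The span of H2BC15 in GENCODE also contains the gene H2AC16 on the same strand and H2AC15 on the other. Whether reads of these neighbours entered its count is not given in the sources used here.

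UPF1 depletion lowered nearly all histone genes in vehicle. Compared with control siRNA, 40 of 43 genes were called lower and none higher, where 16% of all genes were called lower and 18.5% higher. The median log2 fold change was -1.55, against 0.03 over all genes, and 39 genes were at least 2-fold lower. All H1 and H4 genes, 12 of 13 H2A, 12 of 13 H2B and 7 of 8 H3 genes were called. The uncalled genes were H2AC6, H2BC6 and H3C6. Without H2AC4, H4C11, H3C4 and H3C12, which did not pass the cutoff in every group, 36 of 39 were called lower. The summed level of the 4 detected markers of other cell types (VWF, COL1A1, KRT14 and CD68) was 35.6 to 38.5 CPM with UPF1 siRNA in vehicle and 20.1 to 25.2 with control siRNA, and in R1881 25.0 to 28.8 and 10.3 to 13.1. Most of this was VWF, at 26.0 ± 0.7 and 11.7 ± 2.1 CPM in vehicle. In R1881 with control siRNA the sum was also lower than in vehicle. Their part in the histone differences was not tested.

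The values of single genes show the size of this difference. H1-5 was at 153, 232 and 172 CPM with control siRNA and 26.2, 33.8 and 54.6 with UPF1 siRNA (-2.28 ± 0.26, adjusted p = 5.17e-06). H2AC14 went from 26.2, 37.0 and 23.7 to 4.67, 4.58 and 10 CPM (-2.17 ± 0.24, adjusted p = 4.83e-06). H4C1 went from 18.2, 24.6 and 18.8 to 3.95, 4.35 and 5.49 CPM (-2.16 ± 0.22, adjusted p = 2.31e-06). None of these groups overlapped. H3C12 was at -2.35 ± 0.42 (adjusted p = 0.000438), from 2.05, 2.98 and 2.38 to 0.395, 0.316 and 0.722 CPM, but passed the filter only through control siRNA in vehicle, the high group here, so that its size cannot be ranked beside the others. H1-4, the linker histone that moved least with R1881, was clearly lower with UPF1 siRNA, at 89.6, 97.6 and 110 CPM against 201, 278 and 214 (-1.22 ± 0.13, adjusted p = 3.28e-06).

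In R1881 the difference between UPF1 and control siRNA remained, with 35 of 43 genes called lower and none higher, where 15.7% of all genes were called lower and 17.6% higher. They were all 3 H1, 11 of 13 H2A, 9 of 13 H2B, 6 of 8 H3 and all 6 H4 genes, and the median over the 43 was -1.28. H2AC4 was at -2.83 ± 0.48 (adjusted p = 0.000369), with UPF1 libraries below the filter's cutoff. H1-5 was at 50.5, 32.7 and 46.1 CPM with control siRNA and 8.71, 9.24 and 4.93 with UPF1 siRNA (-2.48 ± 0.27, adjusted p = 7.05e-06). H3C2 was at 44.5, 30.9 and 34.8 CPM against 7.20, 7.63 and 5.78 (-2.41 ± 0.24, adjusted p = 2.59e-06). In these genes every library with UPF1 siRNA was below every control library. Without UPF1 R1881 replicates 1 and 2, 27 genes were called, all lower.

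RCOR1 depletion gave a smaller difference in vehicle. Of the 43 genes, 20 were called lower and none higher, where 6.21% of all genes were called lower and 5.31% higher. The median was -0.55, against -0.01 over all genes, and no called gene was 2-fold lower. The calls were 1 of 3 H1, 5 of 13 H2A, 8 of 13 H2B, 5 of 8 H3 and 1 of 6 H4 genes. H2AC16 had the largest called difference (26.1, 35.6 and 25.8 CPM with control siRNA, 13.2, 17.6 and 14 with RCOR1 siRNA, log2 fold change -0.97 ± 0.21, adjusted p = 0.00684). H2BC11 fell by 0.82 ± 0.20 (adjusted p = 0.0125), H3C13 by 0.76 ± 0.21 (adjusted p = 0.0299), H4C1 by 0.73 ± 0.21 (adjusted p = 0.0305) and H1-2 by 0.51 ± 0.14 (adjusted p = 0.0301). H4C5 and H4C11 were not called, at -0.04 ± 0.13 and -0.08 ± 0.28 on the log2 scale. The count rested on single libraries: it was 3 without control vehicle replicate 2, 3 without RCOR1 vehicle replicate 3 and 6 without RCOR1 vehicle replicate 1.

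In R1881, RCOR1 siRNA lowered 1 of 43 genes, H2BC21, and raised none, where 7.33% of all genes were called lower and 5.06% higher. At an unadjusted p under 0.05 there were 5 genes by edgeR, and DESeq2 called 1. The median was -0.23. H2BC21 was at 305, 276 and 273 CPM with control siRNA and 239, 214 and 219 with RCOR1 siRNA (-0.34 ± 0.08, adjusted p = 0.00815), with no overlap, and its call was lost without control R1881 replicate 1 (-0.27, adjusted p = 0.0999).

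Set directly against RCOR1 siRNA, UPF1 siRNA lowered 38 genes and raised none in vehicle, where 14.9% of all genes were called lower and 18.2% higher, with a median of -1.10. In R1881 it lowered 31 genes and raised 2, where 18.8% of all genes were called lower and 21.8% higher, with a median of -1.21. H1-5 was lower in vehicle (-1.55 ± 0.25, adjusted p = 0.000193), and H2BC14 was lower in R1881 (-2.30 ± 0.27, adjusted p = 8.05e-06). H3C4 was at -1.93 ± 0.40 in vehicle, but passed the filter only through control and RCOR1 siRNA in vehicle, so that this value cannot be ranked beside the others. H2BC14 was at 0.987, 0.980 and 1.19 CPM with UPF1 siRNA and 5.13, 5.96 and 4.48 with RCOR1 siRNA in R1881. The 2 genes that were higher with UPF1 siRNA in R1881 were H2BC21 (0.32 ± 0.08, adjusted p = 0.00389) and H2AC6 (0.28 ± 0.09, adjusted p = 0.021). The H2AC6 call was lost without UPF1 R1881 replicate 2 (0.22, adjusted p = 0.102) and without RCOR1 R1881 replicate 1 (0.28, adjusted p = 0.0533) or 2 (0.28, adjusted p = 0.0595). Without UPF1 R1881 replicates 1 and 2, 26 genes were called lower and neither of these was called higher. The comparisons with control siRNA share the control libraries, so their values are not independent of each other.

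H2BC21 was the only histone gene raised by R1881, in all 3 siRNA arms. It lies at chr1:149884459-149886652 and is known to give polyadenylated transcripts. With control siRNA it was at 192, 227 and 205 CPM in vehicle and 305, 276 and 273 in R1881 (0.45 ± 0.08, adjusted p = 0.000219). With UPF1 siRNA it was at 143, 135 and 144 CPM and at 290, 281 and 268 (0.99 ± 0.08, adjusted p = 5.06e-08). With RCOR1 siRNA it was at 153, 156 and 139 CPM and at 239, 214 and 219 (0.59 ± 0.08, adjusted p = 2.17e-05). In each arm every R1881 library was above every vehicle library. With scaling by library size alone, which shifts the median of all genes by -0.22 in the first of these comparisons, the rise with control siRNA was no longer called (0.21, adjusted p = 0.121). In vehicle H2BC21 was lower with either targeting siRNA, by 0.57 ± 0.08 for UPF1 (adjusted p = 3.67e-05) and 0.48 ± 0.08 for RCOR1 (adjusted p = 0.000731).

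**Figure D3:**
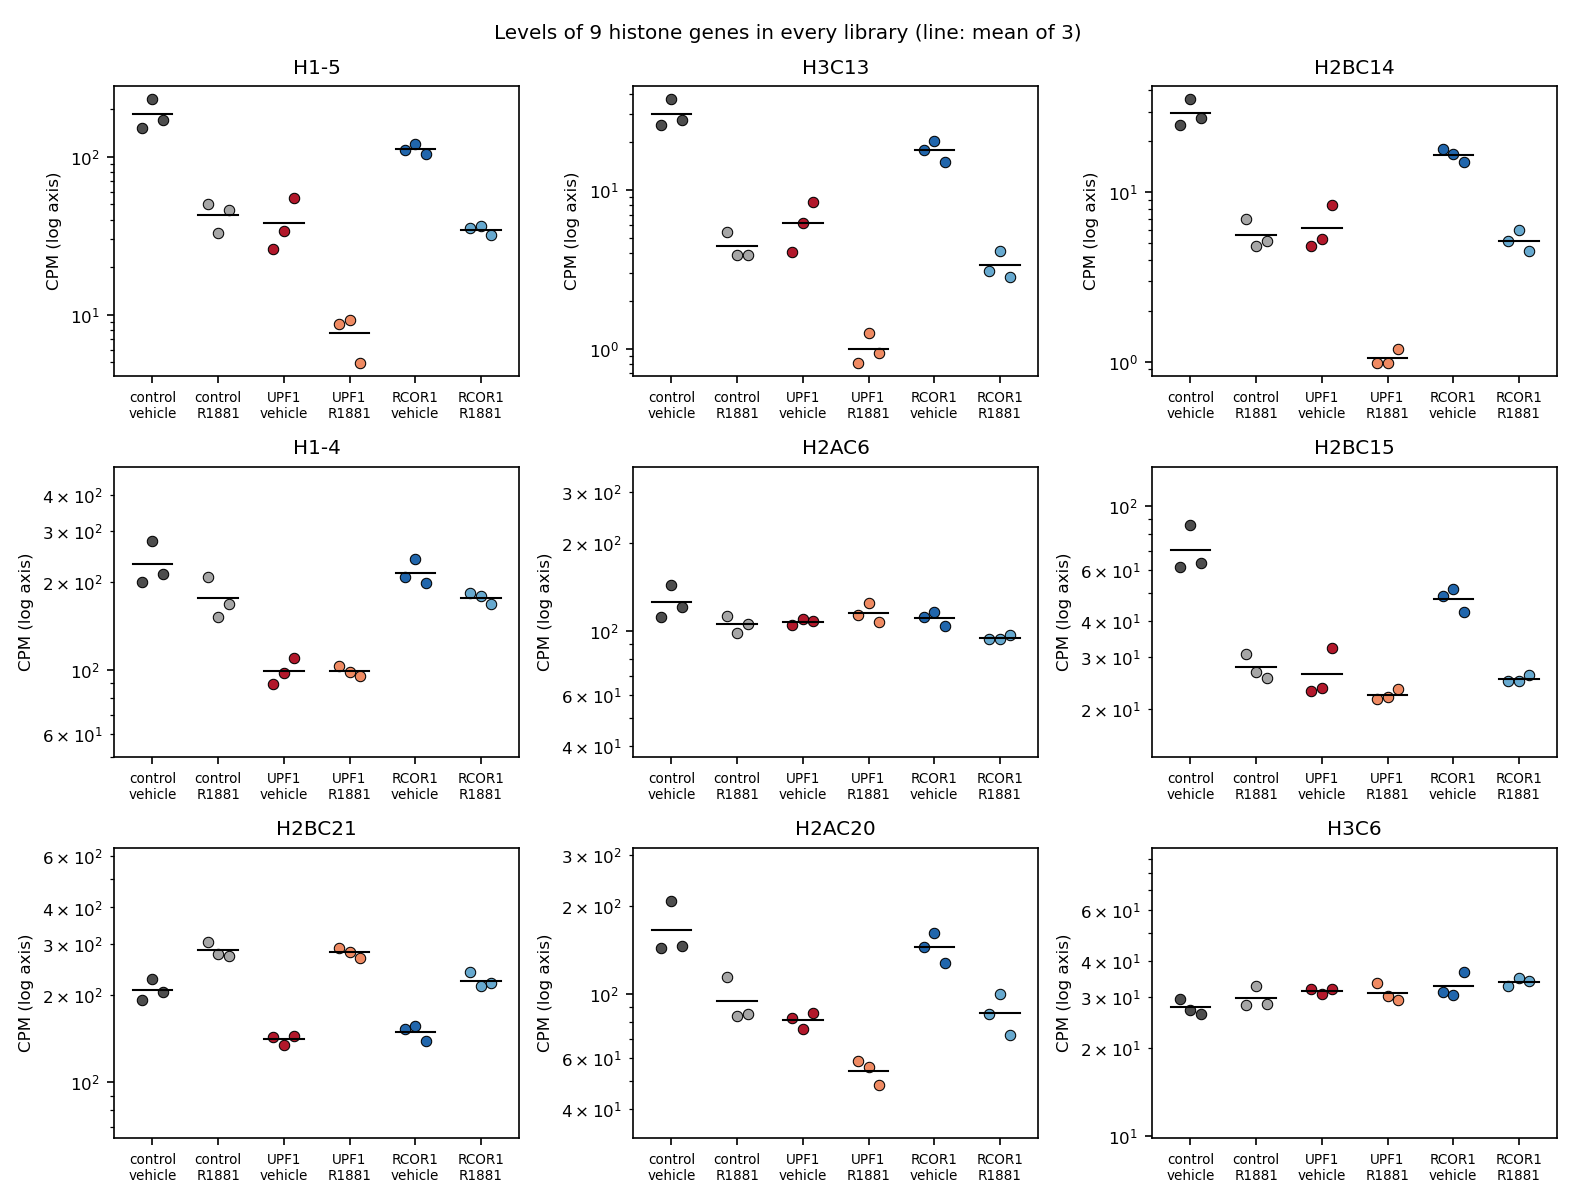
CPM (log axis) of 9 histone genes in every library by siRNA and treatment (points: libraries, line: mean of 3). H1-5, H3C13 and H2BC14 step down with R1881 and with UPF1 siRNA and are lowest with both, H2BC21 is higher in R1881 in each arm, and H3C6 stays between 26.2 and 36.5 CPM.

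H2AC6, H3C6 and H2BC6 were the genes not called with UPF1 siRNA in vehicle. H2AC6 was between 93.2 and 144 CPM in all 18 libraries. Its call with R1881 under control siRNA was lost without replicate 2 or 3 of either group, for example without control vehicle replicate 2 (-0.13, adjusted p = 0.244). H3C6 (chr6:26224199-26227473) was at 29.5, 27.2 and 26.2 CPM in control vehicle cells, 28.2, 32.7 and 28.5 in control R1881 cells, 32.0, 30.7 and 32.1 with UPF1 siRNA in vehicle and 33.7, 30.3 and 29.3 with both. Neither H3C6 nor H2BC6 was called in any of the 11 comparisons, and the log2 fold changes of H3C6 ran from -0.13 to 0.24. Among the 27 members with a stem-loop found, H3C6 alone has its loop letters (the stretch shown with the other stem-loops). H2AC6 and H2BC6 have the most frequent form. So do H2BC13 and H2AC13, which were at -1.70 and -1.86 with R1881 under control siRNA. A relation of the stem-loop letters to the response was not tested. H2BC6 was at 2.43 to 6.69 CPM, where differences are measured less precisely, and its largest log2 fold change with R1881 was 0.52 in the UPF1 arm (adjusted p = 0.0673).

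The members include 6 genes that are known to give polyadenylated transcripts outside S phase: H1-2, H2AC6, H2BC4, H2BC5, H2BC12 and H2BC21. With control siRNA R1881 lowered 5 of them and raised 1, with a median log2 fold change of -0.74, against -1.80 for the other 37. With UPF1 siRNA R1881 lowered none of the 6, with a median of -0.13 against -1.43 for the others. UPF1 siRNA in vehicle lowered 5 of 6 (median -1.04) and 35 of 37 (median -1.72). Their summed level was 1121 ± 184 CPM in control vehicle cells, 602 ± 42 with UPF1 siRNA in vehicle and 700 ± 30 with UPF1 siRNA in R1881, while the others were at 2333 ± 488, 802 ± 145 and 440 ± 19 CPM. The 6 thus made up 32.6 ± 0.9% of the histone sum in control vehicle cells and 61.4% with both. With R1881 in the UPF1 arm H2BC21 alone of the 6 was called, from 143, 135 and 144 CPM to 290, 281 and 268. The 5 others were not called, and 4 of the 6 had a negative log2 fold change. The sum of the 6 rose by less than H2BC21 did, so its rise does not describe the other 5. The share of 61.4% includes H2BC21.

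Genes with long and short annotated 3' ends were also set side by side. In GENCODE, 14 of the 43 genes have a transcript with over 300 bases after the stop codon, and the other 29 do not. With control siRNA R1881 lowered 11 of the 14 (median -1.17) and all 29 others (median -1.86). With UPF1 siRNA it lowered 7 of 14 (median -0.39) and 23 of 29 (median -1.63), and with RCOR1 siRNA 10 of 14 (median -0.81) and 28 of 29 (median -1.42). UPF1 siRNA in vehicle lowered 11 of 14 (median -1.14) and all 29 others (median -1.97). Both sets spanned a wide range, from -2.03 to 0.45 and from -2.76 to -0.39 in the first of these comparisons. This division was chosen after seeing the data. How the authors' annotation drew these 3' ends is not given in the sources used here.

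**Figure D4:**
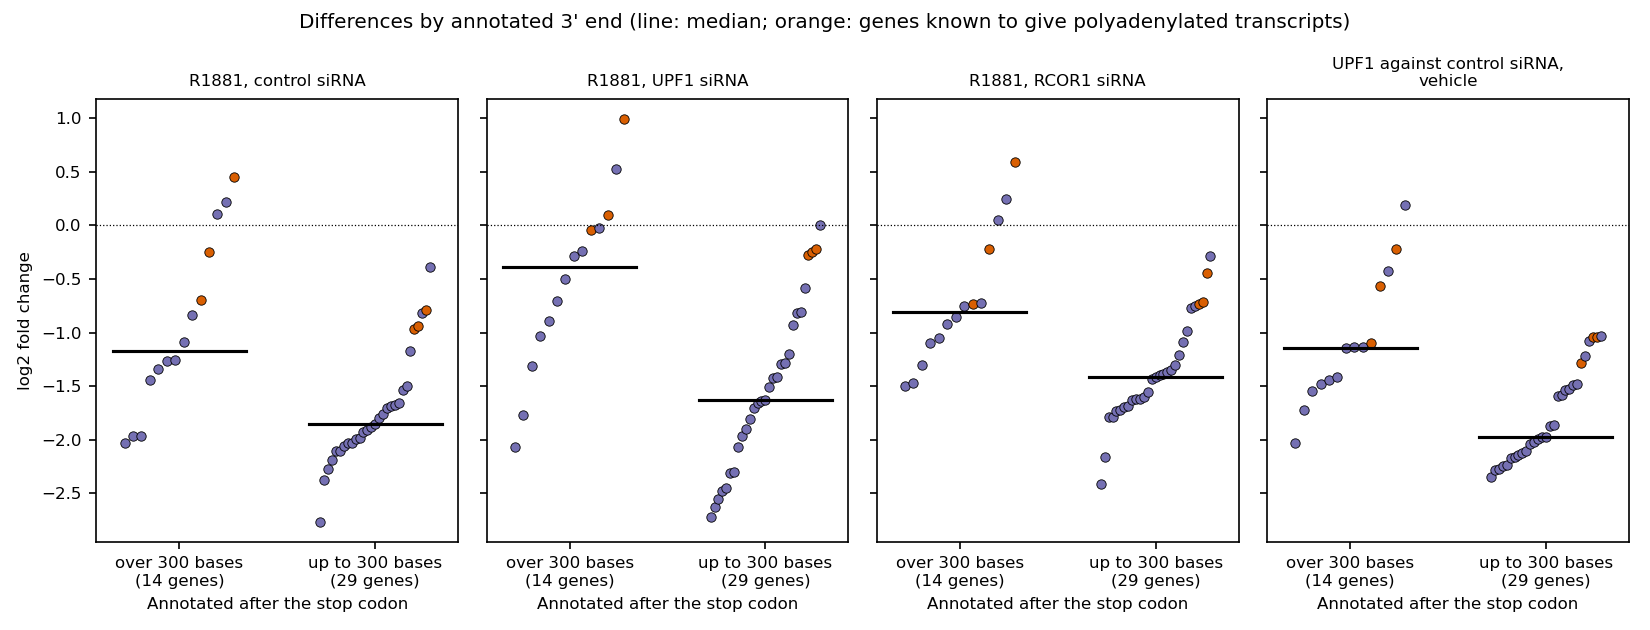
Log2 fold change of each histone gene in 4 comparisons, for the 14 genes with over 300 bases annotated after the stop codon and the 29 others (line: median, orange: the 6 genes known to give polyadenylated transcripts). Most of the 29 have no bases annotated after the stop codon. The medians with control siRNA in R1881 are -1.17 and -1.86, and most of the orange points lie near the top of their set.

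Among genes with a RefSeq window at hand, 10 H2A/H2B pairs start back to back, with 194 to 248 bases between the starts. In 9 of them both genes passed the filter. H2BC12 and H2AC12, on opposite strands, also lie back to back in GENCODE and both passed, but H2AC12 had no such window. This pair is not counted here, and its genes were unequal. With UPF1 siRNA in R1881 H2BC12 was at 70.7, 70.7 and 70.8 CPM, against 77.6, 76.6 and 93.7 in vehicle. H2AC12 was at 1.92, 1.61 and 2.21 CPM, against 8.36, 9.24 and 13.7. Over the 9 pairs, the 2 genes differed in their response to R1881 with control siRNA by a median of 0.45 on the log2 scale. The closest were H2BC11 (-1.97) and H2AC11 (-2.03), and the farthest H2BC21 (0.45) and H2AC20 (-0.82), which lie on either side of the first promoter stretch printed. H2AC20 was at 143, 208 and 146 CPM in vehicle and 114, 83.7 and 84.7 in R1881 (-0.82 ± 0.16, adjusted p = 0.000792). The 2 genes of this pair were called in opposite directions in all 3 R1881 comparisons, and no other pair was. With UPF1 siRNA in vehicle both fell, H2BC21 by 0.57 and H2AC20 by 1.03.

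The other promoter printed lies between H2AC14 and H2BC14, which moved alike: their log2 fold changes with R1881 were -1.91 and -2.37 with control siRNA, -2.30 and -2.56 with UPF1 siRNA and -1.73 and -1.68 with RCOR1 siRNA, all called. H2BC4 and H2AC6 were also unequal, most of all with UPF1 siRNA in vehicle, where H2BC4 fell by 1.05 ± 0.12 (adjusted p = 4.48e-06) and H2AC6 was at -0.22 ± 0.09 (adjusted p = 0.0713). H2AC7 and H2BC7 fell equally with UPF1 siRNA in vehicle (-1.48 each) and unequally with R1881 in the UPF1 arm (-1.64 and -0.50).

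**Figure D5:**
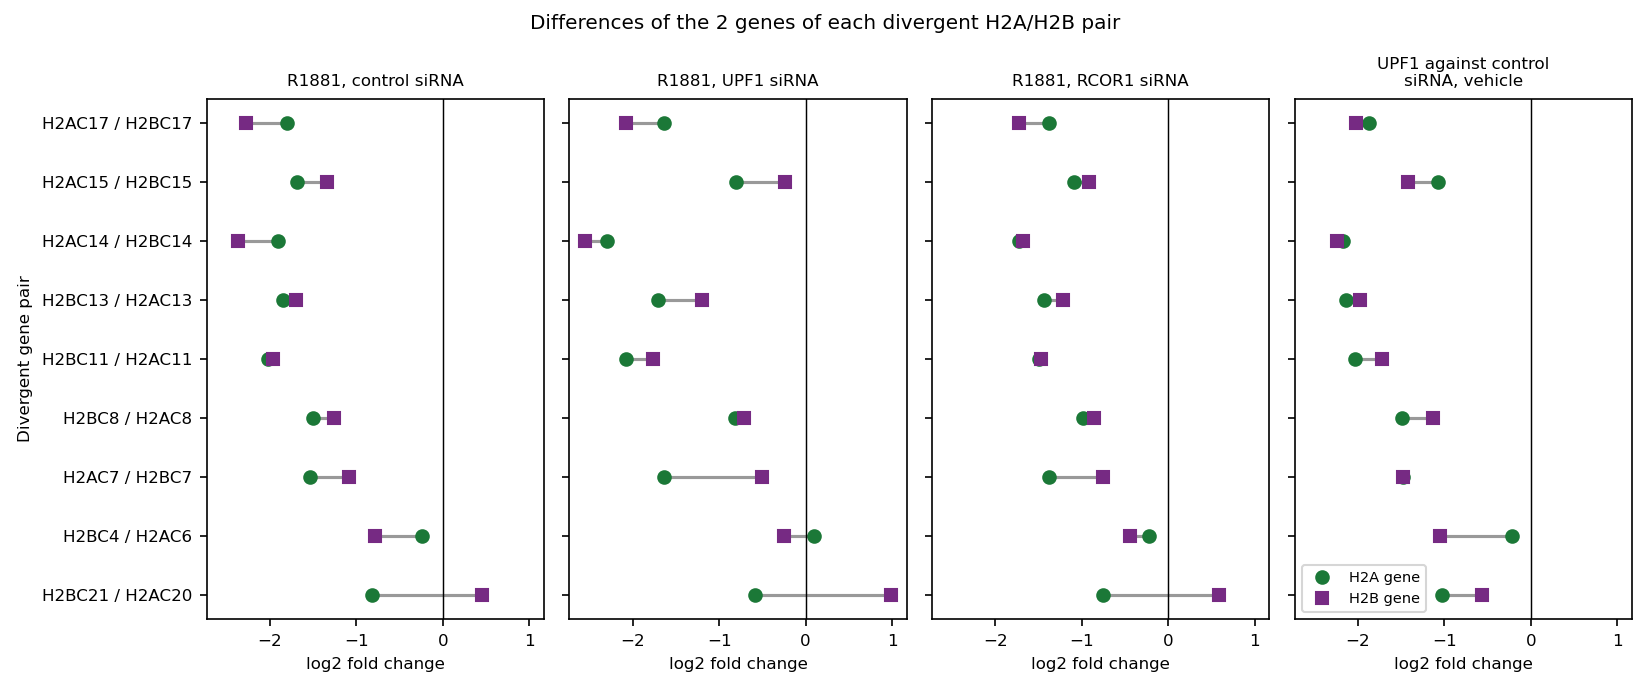
Log2 fold change of the H2A gene (circle) and the H2B gene (square) of each of 9 divergent pairs in 4 comparisons, joined by a line. The H2BC21/H2AC20 pair spans 0 in the 3 R1881 comparisons (0.45 and -0.82 with control siRNA), and the other pairs lie mostly to the left of 0.

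The genes lie in clusters on 2 chromosomes, and both clusters showed the same direction. On chromosome 6, where 38 of the 43 genes lie, R1881 with control siRNA lowered 36 and raised none (median -1.69), and UPF1 siRNA in vehicle lowered 35. On chromosome 1, with 5 genes, R1881 lowered 4 and raised H2BC21 (median -1.18), and UPF1 siRNA in vehicle lowered all 5. Of the 43 genes, 10 have a GENCODE span that overlaps another gene. Coding sequences are also alike: a passing gene shared a median of 90.3% of its bases with its nearest relative of equal length. The 8 genes with an identical copy among the members were H3C14 with H3C15, H2AC18 with H2AC19 and H4C14 with H4C15, all at 0 to 3 counts in total, and H4C11 with H4C12, at 685 and 5. The levels of these copies, H4C11 included, cannot be read with certainty from this table, since the treatment of reads that match several places is not given in the sources used here.

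S phase genes moved with the histone genes. R1881 with control siRNA lowered 35 of 38 listed genes (median -1.10), against 17.6% of all genes, and UPF1 siRNA in vehicle also lowered 35 (median -1.06), against 16%. R1881 lowered 22 and raised 1, CDK2 (0.54 ± 0.08), with UPF1 siRNA, against 20% and 21.6% of all genes. With RCOR1 siRNA it lowered 31, against 14.9%. RCOR1 siRNA lowered 27 in vehicle (median -0.60), against 6.21% of all genes. In R1881 it lowered 3 of the 38, a share near the 7.33% of all genes. UPF1 siRNA in R1881 lowered 21, against 15.7% of all genes, and raised 2, MCM7 (0.42 ± 0.14) and POLE (0.51 ± 0.10), against 17.6%. Among those with the highest mean level, R1881 lowered MCM7, a subunit of the replicative helicase, by 1.12 ± 0.14, RRM1, the large subunit of ribonucleotide reductase, by 0.86 ± 0.09 and POLE, the leading-strand polymerase, by 0.41 ± 0.10. With UPF1 siRNA in vehicle MCM7 and RRM1 fell by 0.63 and 0.36, and POLE was at 0.06 ± 0.10. The UPF1 interaction was called higher for 16 of the 38 S phase genes (median 0.58), against 1.35% of all genes.

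The histone sum divided by the sum of the S phase genes sets the 2 beside each other in each library. The ratio was 1.42, 1.77 and 1.50 with control siRNA in vehicle and 1.80, 1.48 and 1.54 in R1881. It was 1.27, 1.17 and 1.25 with UPF1 siRNA in vehicle and 1.31, 1.28 and 1.26 in R1881, below all 6 control libraries. It was 1.76, 1.97 and 1.63 with RCOR1 siRNA in vehicle and 1.66, 1.67 and 1.54 in R1881. This ratio includes the 6 genes known for polyadenylated transcripts. With control siRNA the other 37 went from 2333 ± 488 to 889 ± 126 CPM with R1881, and the S phase sum from 2196 ± 162 to 1062 ± 19. The same sums went from 802 ± 145 to 440 ± 19 and from 1143 ± 150 to 889 ± 20 with UPF1 siRNA. With RCOR1 siRNA they went from 1699 ± 155 to 837 ± 49 and from 1431 ± 18 to 946 ± 5.8 (SD, n = 3). The share of S phase cells in the histone differences was not tested.

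Replication-independent histones, which are made outside S phase too, had no common direction. With control siRNA R1881 lowered 4 and raised 4 of 11 tested genes, where 17.6% of all genes were lowered and 20.1% raised. H2AX, whose transcript is known to occur in a stem-loop form, was lowered by 1.51 ± 0.15 with R1881 and by 1.42 ± 0.14 with UPF1 siRNA in vehicle. CENPA, the centromeric H3 variant, was lowered by 2.09 ± 0.26 and 1.65 ± 0.25. H3-3B, which encodes the replacement histone H3.3, rose in these comparisons by 0.53 ± 0.05 (adjusted p = 1.2e-06) and 0.54 ± 0.05 (adjusted p = 1.93e-06). H2AZ1 rose with R1881 in the UPF1 arm (1.02 ± 0.08) and the RCOR1 arm (0.69 ± 0.08), and was at 0.19 ± 0.08 with control siRNA.

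Genes that make or degrade histone mRNA were called at shares near or below those of all genes in the 2 comparisons given here. Of 15 tested genes for transcription and 3' end processing, R1881 with control siRNA lowered 2 and raised 1, where 17.6% of all genes were lowered and 20.1% raised. UPF1 siRNA in vehicle lowered 3 and raised 1, where 16% of all genes were lowered and 18.5% raised. SLBP was not called with R1881 (0.01 ± 0.07, adjusted p = 0.922) and lower with UPF1 siRNA in vehicle (-0.45 ± 0.07, adjusted p = 8.37e-05). Of 22 decay genes, R1881 with control siRNA lowered 2 and raised 3, against 17.6% and 20.1% of all genes. UPF1 siRNA in vehicle lowered 3, among them UPF1 itself, and raised 2, against 16% and 18.5%. SMG1, a kinase of UPF1, was higher with UPF1 siRNA in vehicle (1.21 ± 0.35, adjusted p = 0.0142). NPAT, the coactivator of histone gene transcription, was at -0.07 with UPF1 siRNA in vehicle and called lower in R1881 (-1.93 ± 0.50, adjusted p = 0.00756), where 2 of the 3 UPF1 libraries are those lowest in MALAT1. Of 16 histone chaperones, R1881 with control siRNA lowered 7 and raised 1, against the same 17.6% and 20.1% of all genes. UPF1 siRNA in vehicle lowered 8 and raised none, against 16% and 18.5%, with the chaperone ASF1B at -1.40 and -1.61 in these comparisons.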

How the data were processed

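RNA of 18 LNCaP libraries was sequenced, 3 per group. The deposited values were raw counts of reads per gene. Per the submitters' processing notes, the authors used bcl2fastq 2.20, STAR 2.7.9a, build GRCh38.p7 and featureCounts of Subread 1.6.4; annotation release, strand and multimapping settings: not given in the sources used here. Depth was 10299607 to 17338235 counts per library.

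The analysis used edgeR 4.0.16 and limma 3.58.1 in R 4.3.3: filterByExpr by group (minimum count 10), TMM scaling, 1 mean per group over all 18 libraries, the quasi-likelihood F test and Benjamini-Hochberg adjustment over 15390 genes. Each SE was derived from the fold change and its F value. Scripts were tested on simulated data. Labels give no replicate numbers; those used follow accession order and pair nothing. No 2 libraries of a group agreed within sampling noise. In each group 2 libraries were close and the third stood apart. The chi-square per degree of freedom between libraries was 2.98 to 7.01 for the closest pair of each group and 19.6 to 46.2 for the other pairs. The library apart was also the lowest or highest of its group in MALAT1, and the cause was not tested. SE cover the spread between these samples and counting error.

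Members and lists were chosen with earlier results of these data known. Members named were the 3 most abundant of each class, the called gene of each class with the largest difference in each comparison, genes called against their class, genes called in an interaction, and 6 genes known for polyadenylated transcripts. Members named outside that rule illustrate a pair, an overlap or a threshold and were chosen after seeing values. Alternatives were other scalings and filters, DESeq2 1.42.0, fits on the compared groups only, and leaving out libraries. Sequences came from RefSeq and GENCODE 29.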

Additional observations from a re-analysis of the deposited data

Results flagged for a closer look

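The response to R1881 differed between UPF1 siRNA and control siRNA, by the interaction test, in 3 histone genes of the H2B class: H2BC12 (0.71 on the log2 scale), H2BC15 (1.10) and H2BC21 (0.54). In H2BC12 and H2BC15 the fall with R1881 was smaller in the UPF1 arm, from a vehicle level that was already low. In H2BC21 the rise with R1881 was larger. None of the 3 was called without UPF1 R1881 replicates 1 and 2, with H2BC12 at 0.71 (adjusted p = 0.332), H2BC15 at 1.16 (adjusted p = 0.101) and H2BC21 at 0.48 (adjusted p = 0.346). The H2BC12 call was also lost when any 1 of several other libraries was left out, for example control vehicle replicate 2 (0.57, adjusted p = 0.0913).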

How the results depend on the processing

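The counts of called genes stayed within 1.5 times the reported value under all alternatives in 8 of the 11 comparisons. Leaving out 1 library gave 39 to 41 for R1881 with control siRNA, 29 to 32 with UPF1 siRNA and 38 to 39 with RCOR1 siRNA, 40 to 41 and 32 to 35 for UPF1 against control siRNA in vehicle and R1881, 38 to 39 and 32 to 33 for UPF1 against RCOR1 siRNA, and 0 in each case for the RCOR1 interaction. The 3 others moved. RCOR1 against control siRNA in vehicle had 20 calls, 3 to 23 with 1 library left out, 13 with scaling by library size alone and 13 with only the groups compared. In R1881 it had 1, 0 to 1 with 1 library left out, and 0 with library size alone, with no filter beyond 1 count and with only the groups compared. The UPF1 interaction had 3, 2 to 6 with 1 library left out, 7 with library size alone, 7 with no filter, and 0 without UPF1 R1881 replicates 1 and 2. Library size alone moved the median of all genes to between -0.22 and 0.15, and the cause of the other moves was not tested. No median of the 43 genes changed sign, and of 4270 recomputed values of named genes 109 lost and 34 gained a call, with none reversed. No paired analysis was possible because the labels give no replicate numbers within groups and none says that libraries of different groups share a culture or day. Genes at about 1 CPM or below with UPF1 siRNA in R1881, such as H3C13, H2BC14 and H2AC4, rest on few reads.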
